A study of Mus musculus with 5 samples.

Results

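The nuclear genes for subunits of respiratory complexes I, III, IV and V were followed across cell classes and between treatments in single-cell RNA libraries of a mouse leukaemia. Members were chosen by gene symbol, taking symbols that start with Nduf, Uqcr, Atp5, Cox4, Cox5, Cox6, Cox7 or Cox8, together with Pet100, and were then selected on at least 1000 unique molecular identifiers (UMIs, counted cDNA molecules) summed over all deposited barcodes. Of 32285 genes in the count tables, 91 had a matching symbol and 87 reached that sum. The members closest to the limit were Cox4i2 with 1555 UMIs and Cox6a2 with 2012, and the genes left out were Ndufa4l2 with 792, Cox8c with 1, and Cox7b2 and Cox8b with 0. By their known roles, 37 members belong to complex I, 8 to complex III, 16 to complex IV and 17 to complex V, and 9 are assembly factors (Pet100 and 8 Ndufaf genes).

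The respiratory chain passes electrons from NADH through complex I, ubiquinone, complex III and cytochrome c to complex IV, which reduces oxygen. Protons pumped on the way drive ATP synthase, complex V. Most subunits are encoded in the nucleus, whereas a small set of core subunits is encoded by mitochondrial DNA, so that both genomes supply complexes I, III, IV and V. Several complex IV subunits exist as paired isoforms with different tissue distributions, such as Cox7a1 and Cox7a2, Cox6a2 and Cox6a1, Cox6b2 and Cox6b1, and Cox4i2 and Cox4i1.

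The cells came from C57BL/6 mice given CMM cells, a GFP-positive acute myeloid leukaemia with inv(16), by the intravenous route. Treatment started at about 1% GFP-positive leukaemia cells in blood and consisted of 3 intravenous doses on alternate days, and all 5 libraries were made from spleen cells sorted for GFP and c-Kit. The control group was 1 library from mice given PBS (n = 1), and the treated group was 4 libraries, Decoy 2, Decoy 3, Decoy 5 and Decoy 6 (n = 4), from mice given CpG-STAT3dODN, a CpG oligonucleotide joined to a decoy oligonucleotide for the transcription factor STAT3. Nothing in the labels ties a library to its own animal, so each p reflects library-to-library spread, which may be technical, and with 1 PBS library treatment and library cannot be told apart. Age, sex and the number of animals per library are not given in the sources used here.

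After filtering, 1933 cells (Decoy 3) to 16034 cells (PBS) were kept per library, with median depths of 14005 to 36505 UMIs per cell, and any 2 libraries shared at most 45 cell barcodes (up to 0.695% of the smaller library). Clusters were named by marker genes, and levels are given as CPM, UMIs relative to the total. A class of mast cell and basophil type (Cpa3, Fcer1a, Hdc and Gata2 among 6 of 10 markers passing), called mast/basophil-like from here on, held 14175 cells in PBS and 5068, 369, 0 and 1397 in Decoy 2, 3, 5 and 6. Its listed markers that did not pass were Prss34, Mcpt8, Cma1 and Tpsb2. B cell-like, T cell-like, macrophage-like, neutrophil-like and plasma cell-like classes were also present although the sort selected GFP and c-Kit, and Decoy 5 consisted mainly of these and of progenitor-like and erythroid-like cells. Kit, the sorted marker, was counted at 45.6 to 53.6 CPM in mast/basophil-like cells but at 0 to 10.6 in B cell-like cells, and over all kept cells it ranged from 10.1 in Decoy 5 to 50.1 in PBS. The GFP transgene is not among the gene symbols used here, so whether a class holds leukaemia cells or host cells could not be read from it. In comparisons of treatments CPM values use totals scaled by the TMM method, and in comparisons of classes the class total alone.

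The first question was whether the transcripts changed with the decoy within the mast/basophil-like class, the class that held most PBS cells. In all, 7 members rose and 0 fell: Cox7a1, Pet100, Ndufb1-ps, Ndufa1, Ndufa3, Atp5mpl and Atp5md were called higher, by 1.61-fold to 2.22-fold. These 7 of 86 members tested compare with a background of 0.637% of all 14280 genes tested that were called higher in this class (edgeR quasi-likelihood test, Benjamini-Hochberg adjusted p under 0.05, Decoy n = 3). Without Decoy 2 the count was 12, and without Decoy 6 it was 11. DESeq2 called 18 members, all higher, and 263 of all genes tested. An unadjusted p under 0.05 (edgeR) was reached by 30 members and by 1326 of all genes tested.

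Cox7a1 encodes the heart and muscle isoform of subunit VIIa of complex IV and lies at chr7:30184144-30186078 (mm10, + strand). It was counted at 15.6 CPM in PBS and at 36.2, 36.5 and 31.6 in Decoy 2, 3 and 6. All treated libraries lay above PBS, and the treated values were close to each other. The log2 fold change was 1.15 ± 0.13 (SE, edgeR adjusted p = 0.00452, 3 of 3 libraries higher), and it kept its call in each of 12 alternative analyses. Its partner isoform Cox7a2 was at 544 CPM in PBS and 638 ± 15.7 (SD, n = 3), a log2 difference of 0.23 that did not pass the test (edgeR adjusted p = 0.581). Of the UMIs of the Cox7a1 and Cox7a2 pair, 2.79% belonged to Cox7a1 in PBS and 5.17% ± 0.45 (SD, n = 3, range 4.68 to 5.55) in the Decoy libraries.

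Pet100, an assembly factor of complex IV (chr8:3621548-3625848, + strand), was at 63.6 CPM in PBS and at 154, 139 and 120 in Decoy 2, 3 and 6 (log2 fold change 1.11 ± 0.14, SE, edgeR adjusted p = 0.00955). The groups did not overlap. Ndufb1-ps carries a pseudogene suffix and is annotated as a long noncoding RNA in GENCODE vM21, whereas RefSeq lists the same locus as the protein-coding gene Ndufb1, an accessory subunit of complex I. Its level was 315 CPM in PBS and rose to 727, 648 and 577 in Decoy 2, 3 and 6 (log2 fold change 1.04 ± 0.15, SE, edgeR adjusted p = 0.0112). Every treated library was above PBS for this gene (chr12:101968090-101977068, - strand) as well.

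Ndufa1 and Ndufa3 were also called in complex I, both accessory subunits of the membrane arm. Ndufa1, on the X chromosome (chrX:37187588-37191163, - strand), was at 192 CPM in PBS and at 327, 339 and 349 in Decoy 2, 3 and 6 (log2 fold change 0.82 ± 0.12, SE, edgeR adjusted p = 0.0115). Ndufa3 (chr7:3617373-3620327, + strand) was at 163 CPM in PBS and at 330, 279 and 255 (0.82 ± 0.15, SE, edgeR adjusted p = 0.0380). For both genes the lowest Decoy library exceeded PBS, and the Decoy libraries were tighter for Ndufa1 than for Ndufa3. In complex V, the small membrane subunit genes Atp5mpl (chr12:111961375-111966977, - strand) and Atp5md (chr19:47083464-47090647, - strand) rose from 400 to 678 ± 50.6 CPM and from 291 to 469 ± 47.3 CPM (SD, n = 3). Their log2 fold changes were 0.76 ± 0.13 and 0.69 ± 0.14 (SE), with edgeR adjusted p of 0.0249 and 0.0493. Atp5md and Ndufa3 lost their call when the library total alone set the scale (adjusted p = 0.0768 and 0.0568).

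**Figure D1:**
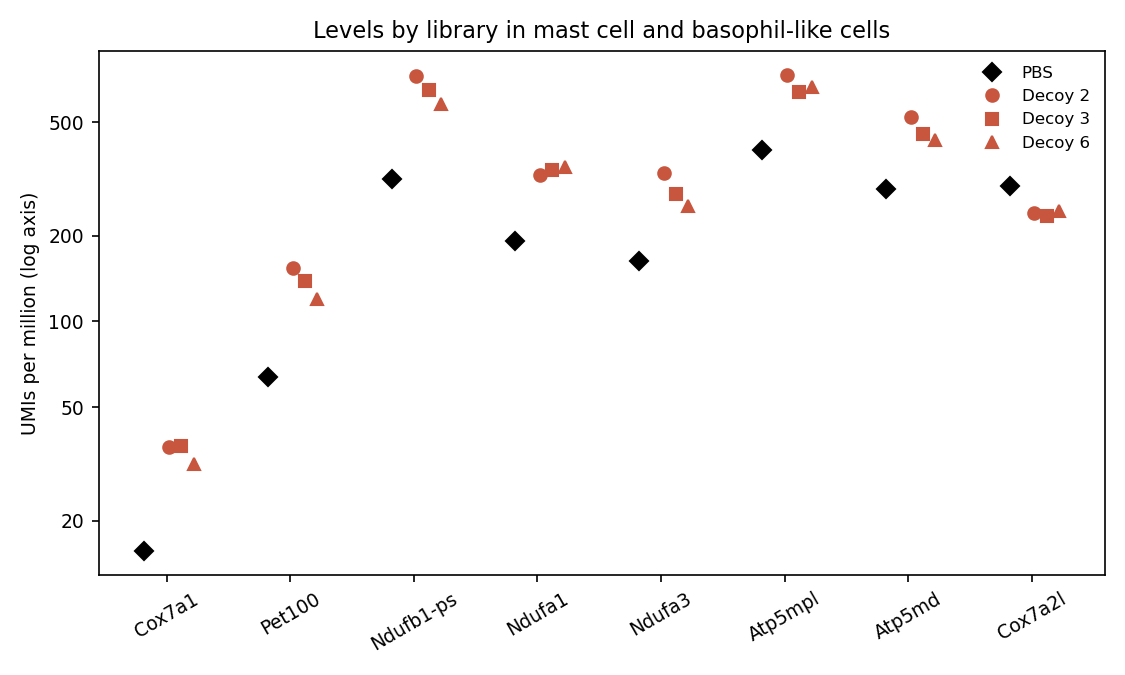
CPM (log axis) of the 7 called genes and Cox7a2l in mast/basophil-like cells, 1 point per library (PBS black, Decoy 2, 3 and 6 red). The 3 Decoy points lie above PBS for each called gene and below it for Cox7a2l, for which PBS is at 298 and the Decoy libraries are at 234 to 243.

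The 250 bases before the annotated start are shown for 4 of these genes, because the called genes Pet100, Ndufb1-ps and Cox7a1 and the uncalled isoform Cox7a2 differ in the motifs they hold. Sequences are from RefSeq (GRCm38.p6), 5′ to 3′ on the strand of the gene, with capitals marking matches on either strand to any of 7 motifs searched, namely ETS (CCGGAAG), NRF1 (GCGCATGC), YY1 (AAGATGG), CRE (TGACGTCA), ERR (AAGGTCA), the GC box (GGGCGG) and STAT (TTCNNNGAA).
Pet100 (chr8:3621301-3621550, + strand): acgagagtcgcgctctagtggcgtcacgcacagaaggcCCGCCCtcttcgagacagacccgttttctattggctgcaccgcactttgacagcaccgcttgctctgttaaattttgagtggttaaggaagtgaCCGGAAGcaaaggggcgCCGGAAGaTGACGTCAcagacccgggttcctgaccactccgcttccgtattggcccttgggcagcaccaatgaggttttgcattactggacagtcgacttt
Ndufb1-ps (as RefSeq Ndufb1, chr12:101975739-101975988, - strand): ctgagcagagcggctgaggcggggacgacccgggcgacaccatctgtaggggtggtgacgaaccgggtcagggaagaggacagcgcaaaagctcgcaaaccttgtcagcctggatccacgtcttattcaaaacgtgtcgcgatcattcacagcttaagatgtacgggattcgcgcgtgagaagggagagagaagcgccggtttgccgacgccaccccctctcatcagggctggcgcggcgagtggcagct
Cox7a1 (chr7:30183921-30184170, + strand): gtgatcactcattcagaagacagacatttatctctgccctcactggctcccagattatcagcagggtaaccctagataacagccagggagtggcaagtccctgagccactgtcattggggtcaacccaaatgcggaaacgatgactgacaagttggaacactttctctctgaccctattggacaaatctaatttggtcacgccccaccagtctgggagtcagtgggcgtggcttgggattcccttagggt
Cox7a2 (chr9:79759854-79760103, - strand): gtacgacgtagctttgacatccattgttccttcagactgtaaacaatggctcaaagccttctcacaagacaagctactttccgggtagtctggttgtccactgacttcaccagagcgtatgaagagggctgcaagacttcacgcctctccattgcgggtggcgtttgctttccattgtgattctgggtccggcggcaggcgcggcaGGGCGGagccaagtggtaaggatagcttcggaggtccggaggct
The Pet100 window held 2 ETS matches, 1 CRE match directly after the second of them, and 1 GC box. The Cox7a2 window held 1 GC box, and the windows of Ndufb1-ps and Cox7a1 held none of the 7 motifs. The Ndufb1-ps window precedes the RefSeq start but lies inside the GENCODE span of the counted gene (chr12:101968090-101977068, - strand). It therefore does not describe the sequence before the GENCODE start of that gene. Over the 72 members found in the promoter table, 18.1% held ETS against 6.91% of all 32851 promoters, 11.1% held NRF1 against 2.26%, and 6.94% held CRE against 1.55%. The GC box was in 40.3% of members and 32.7% of all promoters, ERR in 6.94% and 4.08%, STAT in 5.56% and 7.02%, and YY1 in 0 of 72 members and 4.49% of all promoters. Members had a median GC content of 56.8% in this window against 52.4% over all promoters, and GC content was not adjusted for. Of the 6 called members in the table, 4 held a GC box, 1 held ETS, 1 held CRE and 0 held STAT or NRF1. A match describes these letters only.

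Across the complexes the same class showed many small positive differences and few called ones. In complex I, 3 of 37 members were called, and the median log2 fold change was 0.07. The 7 catalytic core subunits, which carry the flavin and the iron-sulfur clusters, had a median of -0.06, and edgeR and DESeq2 called 0 of them, with 0 at an unadjusted p under 0.05. Ndufs1, the large iron-sulfur subunit, was the lowest of complex I at -0.15 ± 0.11 (SE, 70.5 CPM in PBS, 63.2 ± 4.64 in Decoy, SD, n = 3), and Ndufv1, which binds NADH, was at 0.13 ± 0.11. In complex III, with a median of 0.23, 0 of 8 members were called by edgeR, 1 by DESeq2, and 4 had an unadjusted p under 0.05. Uqcr11, a small membrane subunit, stood highest there at 422 and 635 ± 43.1 CPM (0.59 ± 0.13, edgeR adjusted p = 0.0671). Uqcrc1, a core protein, was at 158 and 204 ± 16.3 CPM, and the Rieske protein gene Uqcrfs1 at 161 and 146 ± 10.8 CPM, and neither passed the test.

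In complex IV, 1 of 15 tested members was called (Cox7a1) and the median was 0.16. The structural subunit genes Cox4i1, Cox6a1, Cox6b1 and Cox8a, and Ndufa4, a complex IV subunit once assigned to complex I, had log2 differences of -0.11, 0.16, 0.27, 0.12 and 0.09, none of which was called. Cox7a2l, described as a factor in supercomplexes of complexes III and IV (not measured here), was the lowest member above 20 CPM in this class. Its level was 298 CPM in PBS and 240, 234 and 243 in Decoy 2, 3 and 6, with no overlap between the groups, but the difference of -0.32 ± 0.11 did not pass the test (edgeR adjusted p = 0.302). In complex V, 2 of 17 members were called, with a median of 0.02. Atp5k, subunit e, had a log2 difference of 0.84 ± 0.19 with wide spread (353 CPM in PBS, 766, 603 and 524 in Decoy, edgeR adjusted p = 0.0802). The catalytic subunits Atp5a1 and Atp5b, at -0.03 and 0.04, and Atp5g2, a gene for the c ring, at -0.12, were near 0. Among the assembly factors 1 of 9 was called (Pet100), and Ndufaf7, a methyltransferase, was at -0.06.

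**Figure D2:**
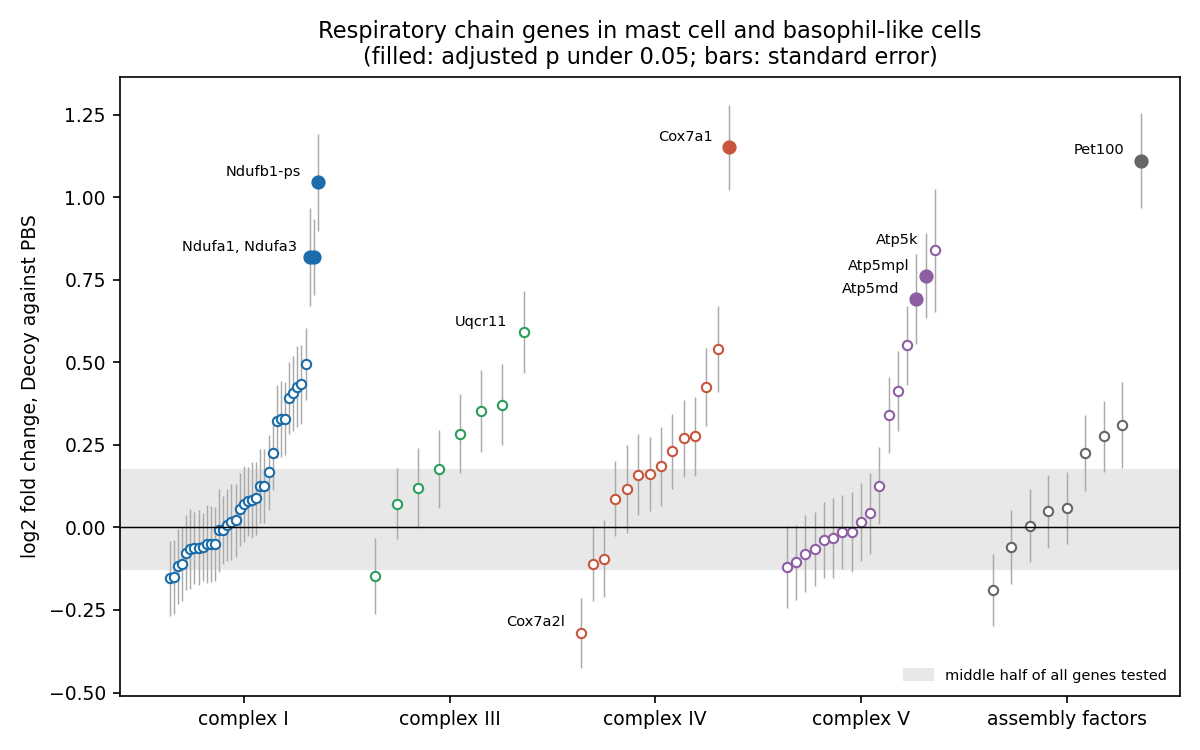
Log2 fold change, Decoy against PBS, of members in mast/basophil-like cells, grouped by complex and ordered by value, with standard errors and filled points where adjusted p was under 0.05. Cox4i2, at about 1 CPM, is not drawn. The grey band spans the interquartile range of all genes tested, and the called genes lie above it, from 0.69 to 1.15.

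Over all 86 members tested the median log2 fold change was 0.09, against 0.00 for all genes tested, and 57 were positive. Every Decoy library was above PBS for 49 members, or 57.0%, against 27.5% of all genes tested. Together the members took 3.04% of UMIs in PBS and 3.18%, 3.27% and 3.39% in Decoy 3, 6 and 2, so all 3 treated libraries were above PBS. Complex I took 0.877% and 0.946% ± 0.025 (SD, n = 3), complex III 0.294% and 0.335% ± 0.010, complex IV 0.827% and 0.875% ± 0.022, and complex V 1.00% and 1.08% ± 0.047. The 13 mitochondrially encoded subunits took 4.59% of UMIs in PBS and 4.12% ± 0.12 in Decoy. The ratio of nuclear to mitochondrial chain UMIs was 0.662 in PBS and 0.797 ± 0.037 (range 0.755 to 0.823). With 1 PBS library and 3 Decoy libraries the smallest one-sided p of an exact permutation test is 0.25, so no test of these sums is given.

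The class was made of 5 raw clusters, and the genes called in the whole class, with Cox7a2l, are described in each. The clusters divide the same cells of the same libraries, so their values are a description and no independent repeat. How many of all genes had every Decoy library above PBS was not counted per cluster. In all 5, every Decoy library was above PBS for Pet100 (log2 ratio 0.97 to 1.16), Ndufb1-ps (0.89 to 1.06), Ndufa3 (0.70 to 0.83), Ndufa1 (0.52 to 0.78), Atp5mpl (0.69 to 0.82) and Atp5md (0.54 to 0.69). Cox7a1 did so in 4 of 5 clusters, with ratios of 0.32 to 1.21. The exception was the smallest cluster, of 520 PBS cells, where Cox7a1 stood at 29.6 CPM in PBS and the lowest Decoy library was at 29.2. Cox7a2l was lower on average in all 5 (-0.49 to -0.37).

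The other classes were tested in the same way, always against the same PBS library, so their values are given side by side and are not independent of each other. In the granulocyte-monocyte progenitor-like class (5 of 8 listed markers, Elane, Mpo, Prtn3, Ctsg and Ms4a3, 120 PBS cells), 7 of 87 members were called, all higher, against 0.404% of all genes tested. They were Pet100, Ndufb1-ps, Atp5md, Atp5mpl, Uqcr11, Ndufv3 and Ndufa1. Pet100 was at 56.3 CPM in PBS and at 145, 133, 119 and 118 in Decoy 2, 3, 5 and 6 (log2 fold change 1.20 ± 0.15, SE, edgeR adjusted p = 0.0293). Uqcr11 was at 360 CPM in PBS and at 595, 559, 587 and 543 (0.66 ± 0.10, edgeR adjusted p = 0.0383). For both genes the 4 Decoy libraries were all above PBS, as they were for 62.1% of members and 28.0% of all genes tested. The count of calls was 0 without Decoy 5, 1 without Decoy 3, 2 without Decoy 6 and 18 without Decoy 2. DESeq2 called 25 members and 373 of all 11392 genes tested. The fold changes moved little over the 9 alternatives, with log2 values of 1.15 to 1.24 for Pet100, 0.65 to 0.69 for Uqcr11 and 0.79 to 0.82 for Atp5mpl, while their highest adjusted p values were 0.0959, 0.105 and 0.0919 (edgeR).

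In the macrophage-like class (10 of 10 listed markers, among them C1qa, Vcam1 and Csf1r), 5 of 87 members were called, all higher, against 3.18% of all genes tested. Given that background, the count is read as a description only. The called genes were Pet100 (58.8 to 144 ± 13.3 CPM, SD, n = 4), Ndufv3 (153 to 260 ± 4.13), Ndufa5 (112 to 184 ± 7.48), Ndufa1 (170 to 249 ± 6.12) and Uqcr11 (273 to 389 ± 16.5). Ndufv3 and Ndufa5 encode accessory subunits of the arm of complex I that projects into the matrix. In PBS this class had 108 cells, of which 75 were in a raw cluster with a median of 2326 UMIs per cell. Without that cluster, an alternative chosen after seeing the data, 33 PBS cells were left, 0 members were called and the log2 difference of Pet100 was 1.33 (edgeR adjusted p = 0.0768). The count was 0 without Decoy 3, 1 without Decoy 6, 2 without Decoy 5 and 12 without Decoy 2, of which 11 were higher. DESeq2 called 15 members, of which 14 were higher, and 1018 of all 13355 genes tested. Scaled by the total alone, 3 members were called higher and 1 lower, and with RLE scaling 4 higher and 1 lower. Ribosomal protein genes were lower in the same comparison (39 of 77 called), and the part of the mixed PBS cells in these results was not tested. Cox7a2l was at 353 CPM in PBS and at 250, 213, 193 and 197 in Decoy 2, 3, 5 and 6, below PBS in 4 of 4 libraries, and just missed the threshold (-0.73 ± 0.16, SE, edgeR adjusted p = 0.0521).

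Among neutrophil-like, T cell-like and B cell-like cells edgeR called 0 members, and 0% of all genes tested, in each class. An unadjusted p under 0.05 was reached by 16, 25 and 36 members, and DESeq2 called 3, 9 and 24. Of all 9514, 10343 and 11066 genes tested, 741, 1263 and 1584 reached that unadjusted p, and DESeq2 called 52, 116 and 207. Without Decoy 2 edgeR called 2 members in T cell-like cells. B cell-like cells had the highest median log2 difference of the 6 classes tested, 0.29 over 86 members against -0.00 over all genes. Depth differed in the same direction, with a median of 3928.5 UMIs per B cell-like cell in PBS and 6247 to 9109 in the Decoy libraries, and its part in the result was not tested. PBS was also the shallowest library in macrophage-like cells (3678 against 12768 to 22851) and T cell-like cells (6449 against 6975.5 to 13644), but lay within the Decoy range in mast/basophil-like cells (32045, range 28008 to 38169.5) and progenitor-like cells (32850, range 28445 to 45078.5). In B cell-like cells Atp5k was at 192 CPM in PBS and at 477, 410, 402 and 338 in Decoy 2, 3, 5 and 6, and Ndufa3 at 134 CPM and 325, 250, 261 and 230. The medians were 0.14 in T cell-like, 0.16 in neutrophil-like, 0.17 in progenitor-like and 0.12 in macrophage-like cells, the last against 0.08 over all genes. Scaled by the total alone, the neutrophil-like median turned to -0.06, against -0.20 over all genes. Pet100 was at 58.1 CPM in PBS and at 176, 149, 146 and 142 in T cell-like cells, and at 52.6 CPM and 157, 152, 139 and 124 in neutrophil-like cells. In each of these cases every Decoy library lay above PBS. Over all genes tested this held for 31.0% in B cell-like, 29.4% in T cell-like and 27.4% in neutrophil-like cells. Over members it held for 69.8%, 48.8% and 45.9%, in the same order. In macrophage-like cells it held for 41.2% of all genes tested and 54.0% of members.

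**Figure D3:**
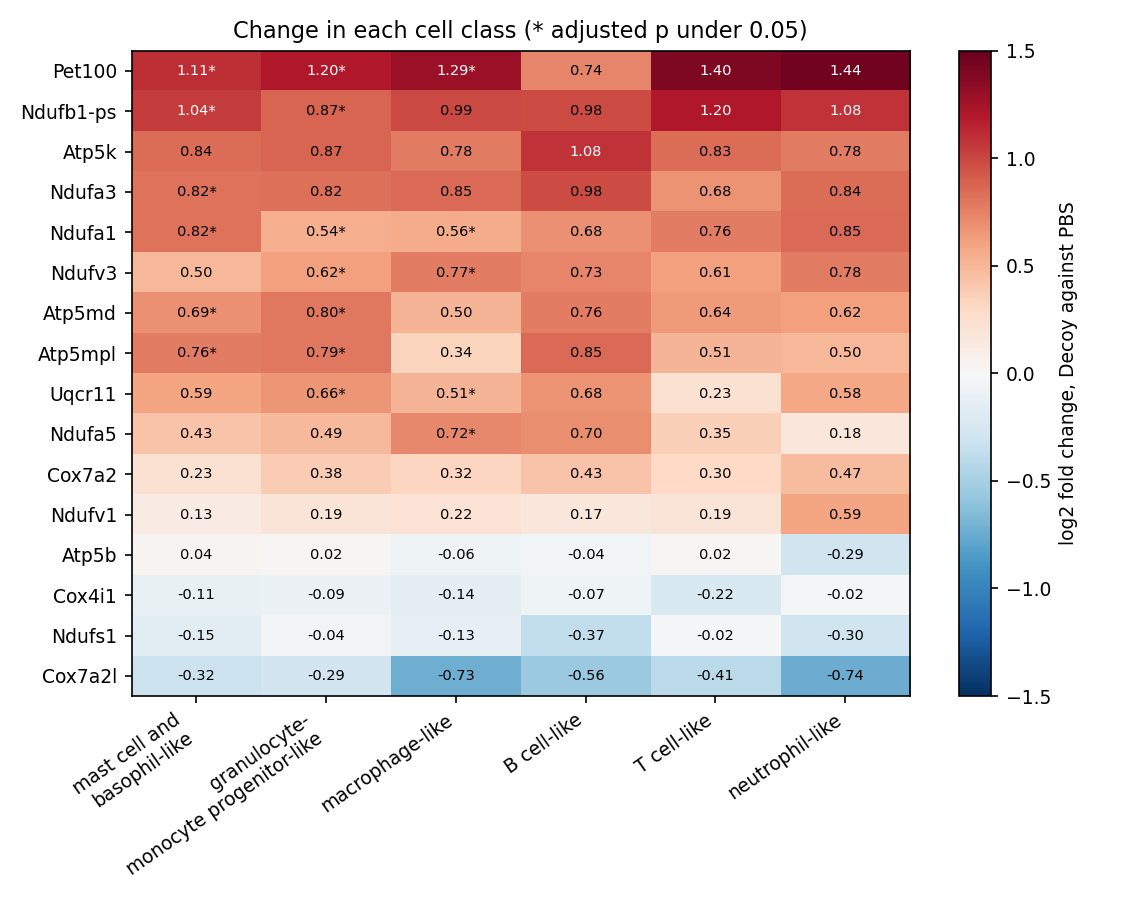
Log2 fold change, Decoy against PBS, of 16 members in the 6 classes tested, each against the same PBS library, with a star where adjusted p was under 0.05. Pet100 ranges from 0.74 to 1.44 and Ndufb1-ps from 0.87 to 1.20, whereas Cox7a2l ranges from -0.74 to -0.29.

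Side by side, Ndufa1 differed by 0.54 to 0.85, Ndufa3 by 0.68 to 0.98, Atp5k by 0.78 to 1.08, Atp5md by 0.50 to 0.80 and Ndufv3 by 0.50 to 0.78 on the log2 scale over the 6 classes. Of the complex I core subunits, Ndufs1 differed by -0.37 to -0.02 and Ndufv1 by 0.13 to 0.59, and the structural complex IV gene Cox4i1 by -0.22 to -0.02. Whether the change in the mast/basophil-like class differed from the mean change in the others was tested with libraries as a block. By edgeR 0 of 87 members and 0.00741% of all genes tested were called (DESeq2 was not run for this comparison). An unadjusted p under 0.05 was reached by 1 member, Cox5a, and by 839 of all 13490 genes tested. The difference for Pet100 was -0.13 (95% interval -0.34 to 0.08), for Ndufb1-ps 0.00 (-0.23 to 0.23) and for Ndufa1 0.14 (-0.18 to 0.45). For Cox7a1 the difference was 0.83, with an interval of -0.34 to 1.99, because its counts outside the mast/basophil-like class were low. An uncalled difference does not show that the classes changed alike.

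Over all kept cells edgeR called 0 of 87 members and 0% of all genes tested. An unadjusted p under 0.05 was reached by 7 members (6 of them higher), and DESeq2 called 4. Of all 16006 genes tested, 1667 reached that unadjusted p and DESeq2 called 2029. Without Decoy 2 edgeR called 3. Every Decoy library was above PBS for 27.6% of members, against 34.3% of all genes tested. The median log2 difference was -0.05 over members and 0.02 over all genes. These pooled values mix classes whose cell numbers differ between libraries. Cox7a1 was at 16.0 CPM in PBS and at 34.1, 9.72, 1.52 and 17.7 in Decoy 2, 3, 5 and 6, overlapping PBS. The lowest of these was Decoy 5, the library with 0 cells in the mast/basophil-like class. Ndufb1-ps was at 335 CPM in PBS and at 771, 668, 641 and 597, above PBS in 4 of 4 libraries (log2 difference 1.00 ± 0.21, SE, edgeR adjusted p = 0.465, DESeq2 adjusted p = 0.00135). In Decoy 3, with 369 cells of that class, the pooled level of Cox7a1 was below PBS, whereas its level within the class was above PBS (36.5 against 15.6 CPM).

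Exonic length, counted over all annotated exons of a gene, moved with these differences. Among genes above 20 CPM in the mast/basophil-like class, those outside the member list with under 500 exonic bases had a median log2 fold change of 0.42 (19 genes), those of 500 to 750 bases 0.15 (55 genes) and those of 750 to 1000 bases -0.01 (83 genes). Members had medians of 0.35 at 500 to 750 bases (9 genes), 0.09 at 750 to 1000 (9 genes) and 0.13 at 1000 to 1500 (19 genes, against -0.01 for 267 others). The single member under 500 bases was Ndufa1, with 419 bases and 0.82. Among the called genes Cox7a1 has 535 exonic bases, Ndufa3 1022, Ndufb1-ps 1153, Atp5mpl 1217, Pet100 1788 and Atp5md 2755, all below the median of 3918 bases over all genes tested. The member list as a whole is short, with a median of 1631 bases. Called members had a median of 1153 bases and uncalled ones 1718. Across the 86 members the Spearman correlation of exonic length with log2 fold change was -0.24 in this class, a description over genes that share the same libraries, and the part of length in the result was not tested.

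**Figure D4:**
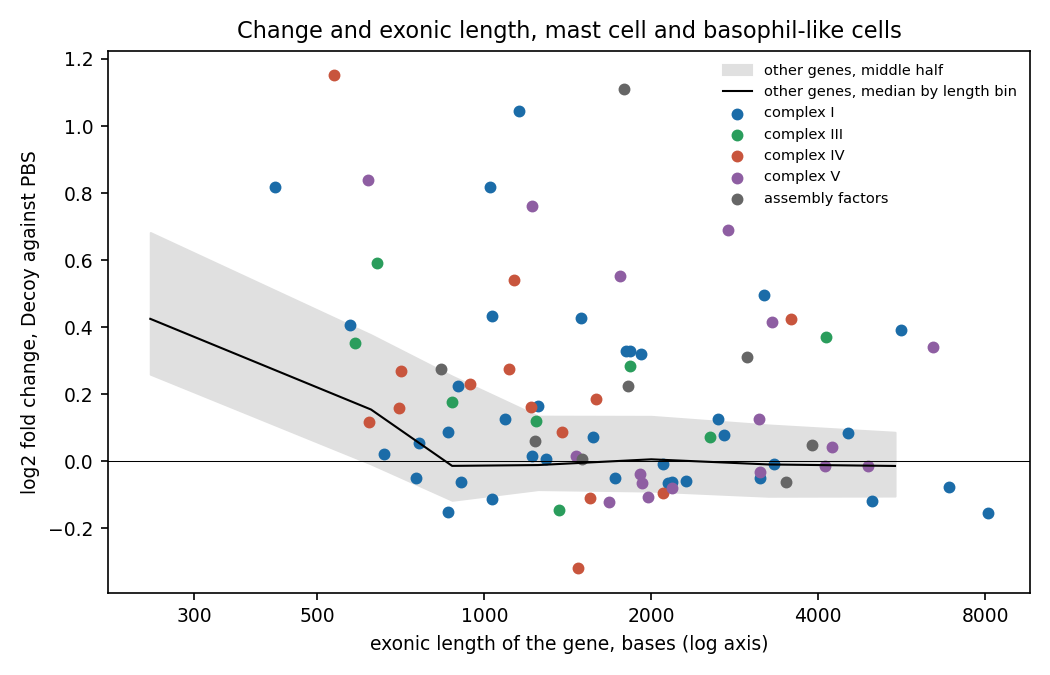
Log2 fold change in mast/basophil-like cells against exonic length (log axis) for members above 20 CPM, coloured by complex. The black line joins the medians of other genes at the middle of each length bin and the grey band their interquartile range. The median falls from 0.42 below 500 bases to -0.01 at 750 to 1000 bases, and Pet100, at 1788 bases, lies at 1.11.

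Some members share sequence with neighbours. Pet100 overlaps Pcp2, Ndufa3 overlaps Tfpt, Ndufb1-ps overlaps Cpsf2 and Atp5md overlaps Taf5, each on the opposite strand. Whether the counting used strand is not given in the sources used here, so reads of these pairs cannot be told apart with certainty.

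Levels were set side by side in the 8 classes that had at least 50 cells in 3 or more Decoy libraries. With immunoglobulin and haemoglobin genes taken out of the total, the highest class mean was at most 3 times the lowest for 61 of 87 members, and the median ratio was 2.63. Pet100 varied least, by 1.45-fold, and for most members the lowest class was neutrophil-like. This ratio is not given here for all genes. As a share of all other UMIs the members made up 3.59% ± 0.046 (SD, n = 3) in plasma cell-like, 3.59% ± 0.055 (n = 3) in Car1 erythroid-like and 3.60% ± 0.081 (n = 4) in progenitor-like cells, which did not differ beyond their spread. They made up 3.29% ± 0.098 (n = 3) in mast/basophil-like, 3.08% ± 0.070 in T cell-like, 2.89% ± 0.057 in macrophage-like, 2.51% ± 0.039 in B cell-like and 1.77% ± 0.16 in neutrophil-like cells (n = 4 each). With those genes in the total, plasma cell-like cells were at 2.28% ± 0.027, since immunoglobulin transcripts took 35.7% to 37.7% of their UMIs. In PBS the haemoglobin-rich erythroid-like class had 0.841%, or 1.90% without haemoglobin and immunoglobulin genes, which took 55.8% of its UMIs.

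The widest ranges belonged to isoforms of complex IV. For 5 members the highest class mean exceeded the lowest by more than 10-fold, namely Cox6a2, Cox4i2, Cox7a1, Ndufaf4 and Cox6b2. Cox7a1 was highest in mast/basophil-like cells, at 34.3 ± 2.96 CPM in Decoy (SD, n = 3) and 16.3 in PBS. The unnamed cluster led by Esx1 had 24.2 and 29.8 in its 2 Decoy libraries and 10.5 in PBS, so the Decoy values were above PBS there too. All other named classes were lower, from 6.03 ± 4.05 (n = 4) in T cell-like to 0.367 ± 0.136 (n = 3) in Car1 erythroid-like cells, and the T cell-like, macrophage-like, progenitor-like, B cell-like and neutrophil-like means did not differ beyond their spread. Of the Cox7a1 UMIs in kept cells, 93.6% were in the mast/basophil-like class. That class also held most UMIs of all kept cells, and 65.1% of those of Cox4i2, whose level was not highest there. In B cell-like cells Cox7a1 was at 6.13 CPM in Decoy 2 and at 1.25 in Decoy 3, from 11 and 6 UMIs, and the part of free RNA in such low counts was not tested.

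Cox6b2, described as the testis isoform of subunit VIb, was high in a wider set of classes. Its level was 71.3 ± 5.87 CPM (SD, n = 3) in mast/basophil-like cells, 99.5 ± 7.67 (n = 3) in Car1 erythroid-like cells and 135 in the haemoglobin-rich erythroid-like cells of PBS. In the remaining named classes its Decoy mean was 13.5 CPM or lower, down to 3.47 ± 2.71 (n = 3) in plasma cell-like cells. Within the mast/basophil-like class it was uneven, at 39.2 CPM in the PBS cells of the largest raw cluster and 157 in those of another, with Decoy means of 41.4 and 154.9. The difference between treatments did not pass the test (59.6 CPM in PBS, 72.3 ± 5.95 in Decoy, log2 difference 0.28 ± 0.12, SE, edgeR adjusted p = 0.503). Cox6b2 made up 8.27% of the UMIs of the Cox6b2 and Cox6b1 pair in PBS and 8.34% ± 0.72 (n = 3) in Decoy in that class, and 11.5% to 12.8% (n = 3) in Car1 erythroid-like cells.

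**Figure D5:**
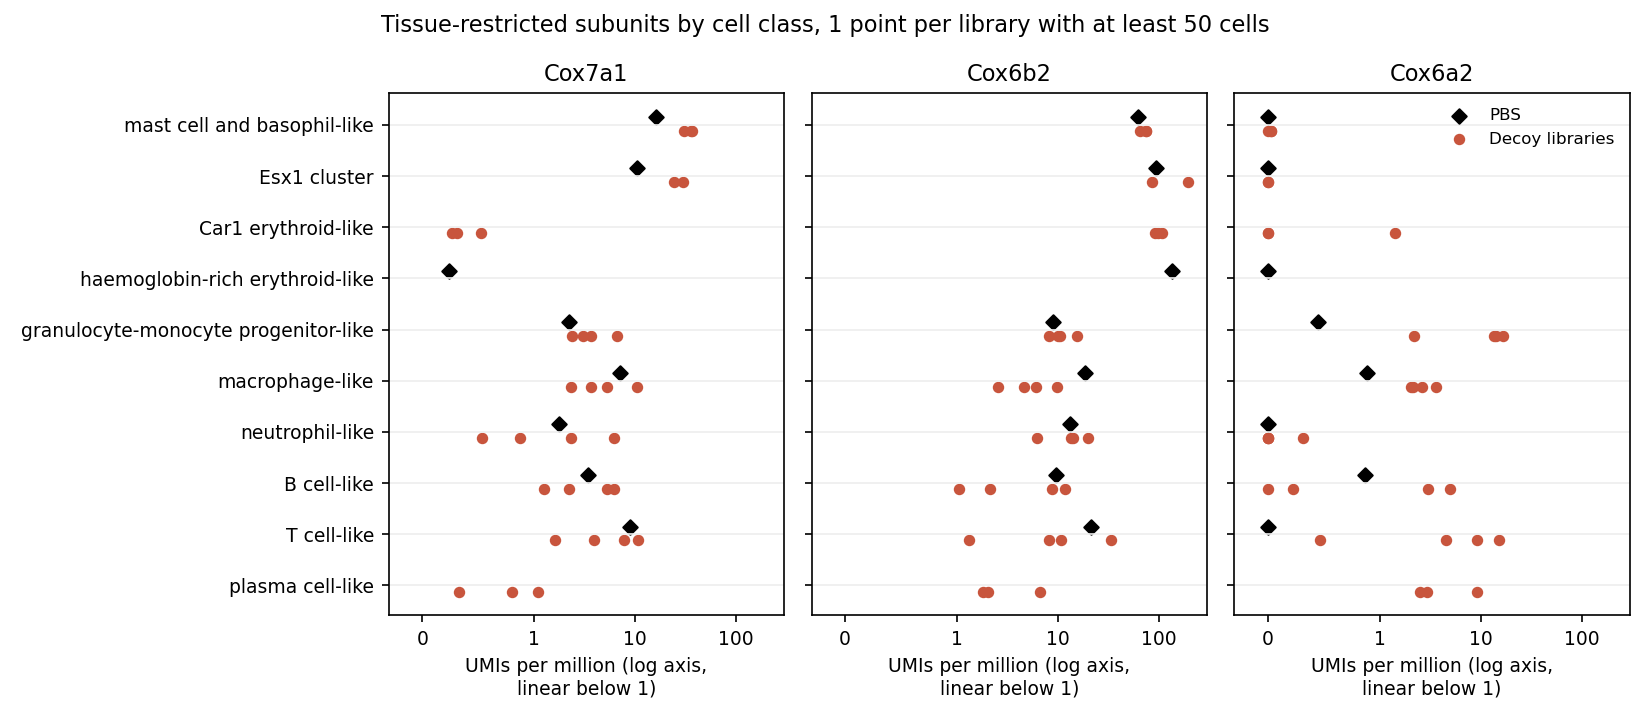
CPM (log axis, linear below 1) of Cox7a1, Cox6b2 and Cox6a2 in each class, 1 point per library with at least 50 cells, without the unnamed low-UMI cluster (PBS black, Decoy red). Cox7a1 is above 10 in mast/basophil-like cells and the Esx1 cluster, with 1 macrophage-like and 1 T cell-like library also just above 10. Cox6b2 is also high in both erythroid-like classes, and Cox6a2 is near 0 in mast/basophil-like cells.

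Cox6a2, the muscle isoform of subunit VIa, was concentrated in 43 plasmacytoid dendritic-like cells (6 of 6 markers, among them Siglech and Ccr9; 2, 3, 4, 22 and 12 cells in PBS and Decoy 2, 3, 5 and 6). Over these cells it was counted at 2121 CPM (95% Poisson interval 2001 to 2248, counting error only), and 57.9% of its UMIs in kept cells were there. A UMI was found in 40 of the 43 cells (93.0%, 95% Clopper-Pearson interval 80.9% to 98.5%, median 10192 UMIs per cell), against 8 of 21009 mast/basophil-like cells (0.0381%, median 33028 UMIs). Progenitor-like cells came next, at 11.6 ± 6.40 CPM (SD, n = 4), with 2.16 in Decoy 3 and 16.5 in Decoy 6. All 469 UMIs of that class were in 66 of its 1023 cells (6.45%), and the part of doublets in this was not tested. Over all kept cells Cox6a2 was at 0.0400 CPM in PBS and at 1.20, 5.04, 11.01 and 5.91 in Decoy 2, 3, 5 and 6, and the 4 Decoy libraries stood in the same order by number of plasmacytoid dendritic-like cells. Clusters were computed without the members, but a class against the rest is a description and no test.

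Cox4i2, the isoform of subunit IV described in lung and under low oxygen, was the least counted member. With all genes in the total, plasma cell-like cells had 7.15 ± 1.65 CPM (SD, n = 3) and progenitor-like cells 6.68 ± 1.74 (n = 4), within their spread. With immunoglobulin and haemoglobin genes taken out, plasma cell-like cells had the highest mean of the 8 classes, 11.3 CPM. Mast cell and basophil-like cells had 0.802 ± 0.265 (n = 3) and 1.48 in PBS, a difference that did not pass the test (edgeR adjusted p = 0.540). Of the UMIs of the Cox4i2 and Cox4i1 pair, Cox4i2 made up 1.02% ± 0.22 (n = 3, range 0.793 to 1.24) in plasma cell-like cells. In progenitor-like cells it made up 0.518% ± 0.138 (n = 4, range 0.315 to 0.620), with no overlap between the 2 classes. Cox4i1 gave nearly all UMIs of the pair.

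Other genes of the pathway were described by 6 lists, whose calls were not tested against those of the members. Of the 13 mitochondrially encoded subunits, 0 passed the edgeR test in the mast/basophil-like class (3 had an unadjusted p under 0.05, and DESeq2 called 1), with a median log2 difference of -0.02, and 1 rose in macrophage-like cells, mt-Nd3 (255 to 553 ± 86.9 CPM, SD, n = 4, 1.12 ± 0.22, SE, edgeR adjusted p = 0.0409). Among 42 assembly factors outside the rule, 1 of them rose in the mast/basophil-like class and 0 fell. This was Cox17, the copper chaperone of complex IV (401 to 613 ± 23.9 CPM, n = 3, 0.61 ± 0.12, edgeR adjusted p = 0.0470), which also rose in macrophage-like cells (0.57 ± 0.11, edgeR adjusted p = 0.0436) together with Coa5 (0.67 ± 0.12, edgeR adjusted p = 0.0365). In the mast/basophil-like class edgeR called 0 of 12 genes of complex II and electron carriers, 0 of 18 of the tricarboxylic acid cycle and 0 of 12 regulators of mitochondrial biogenesis, with 0 at an unadjusted p under 0.05 and 0 by DESeq2. Of 15 glycolysis genes 1 rose, the hexokinase gene Hk2 (10.98 to 19.3 ± 2.16 CPM, n = 3, 0.83 ± 0.14, edgeR adjusted p = 0.0230). Medians of these 4 lists lay between -0.01 and 0.09. Of all genes tested, 0.637% were called higher in the mast/basophil-like class and 3.18% in macrophage-like cells. The calls in the lists are therefore read as a description only. In PBS, 75 of the 108 macrophage-like cells were in the raw cluster of low UMI counts. Values without that cluster are not given here for mt-Nd3, Cox17 and Coa5. In the other classes edgeR called no gene of the 6 lists besides those named, although 0 to 9 genes of a list had an unadjusted p under 0.05 and DESeq2 called 0 to 3.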

How the data were processed

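The deposited matrices hold raw UMI counts for each gene in each barcode, as whole numbers, per the file headers. The libraries used 10x Genomics 3' chemistry. Matrix headers name Cell Ranger 5.0.0, and the submitters' processing notes list mm10, Cell Ranger 3.1, Seurat 4 and DESeq2; their roles are not given in the sources used here.

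Cells were kept at 500 or more genes, 1000 or more UMIs and up to 10% mitochondrial UMIs. Scrublet (scanpy 1.11.5) marked 6.88% of PBS barcodes but at most 0.412% in the Decoy libraries, against 1.96% to 5.49% expected there, so it did not separate doublets in those. The 2000 most variable genes, without the members and the pathway genes, gave Leiden clusters (leidenalg 0.10.2, resolution 0.5). Clusters correlating at 0.85 or more were merged, and named where at least 3 listed markers passed.

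UMIs were summed per library and class with at least 50 cells. They were tested with edgeR 4.0.16 (filterByExpr, TMM, two-sided quasi-likelihood test, R 4.3.3), with DESeq2 1.42.0 as an alternative. These fits take the variance of the lone PBS library from the Decoy libraries. On simulated counts for the mast/basophil-like comparison (13990 genes), 79.0% of 200 genes changed by 1 on the log2 scale were recovered. The spread set in the simulation and the number of unchanged genes called are not given here. The recovered share therefore does not measure how often a real change would be found in these data. It also cannot test the variance assumed for the lone PBS library. Lengths and coordinates are from GENCODE vM21 (mm10, 99.6% of genes found by identifier). Promoters are from RefSeq; 71 of 87 members matched by symbol and 1 by a synonym.

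Members and lists were chosen with earlier results of these data known. The named genes were every member called in the mast/basophil-like class, the highest and lowest member of each complex there above 20 CPM, 20 fixed genes, the 3 members with the widest range between classes, and up to 3 called genes of each pathway list. Genes called in other classes and a few outside this rule (Ndufaf4, Cox5a) were named after their values were seen. Intervals on shares and Poisson counts cover counting error only.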

Additional observations from a re-analysis of the deposited data

Results flagged for a closer look

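Among 51 sets of 4 Decoy values examined, 4 had 1 library far from the others. Chance alone marks about 1 in 20 such sets. Over all kept cells Decoy 2 stood above the other Decoy libraries for Atp5k (781 CPM against 453 to 496), Atp5md (539 against 413 to 428) and Ndufa3 (344 against 245 to 261). Decoy 2 also had the largest number of mast/basophil-like cells among the Decoy libraries, 5068, and the part of this in the 3 values was not tested. In progenitor-like cells the share of UMIs in the members was 3.71% in Decoy 5 against 3.54% to 3.55% in the other Decoy libraries.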

How the results depend on the processing

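Counts of called members depended on the test and the filter. DESeq2 called 4 over all kept cells, 18 in the mast/basophil-like, 24 in the B cell-like, 9 in the T cell-like, 25 in the progenitor-like, 15 in the macrophage-like and 3 in the neutrophil-like class. Over all genes tested its counts were 2029, 263, 207, 116, 373, 1018 and 52, in the same order. Without a filter on low counts edgeR called 12, 8, 1 and 12 in the mast/basophil-like, B cell-like, T cell-like and progenitor-like classes. Leaving out 1 Decoy library at a time gave 0 to 3 over all kept cells, 7 to 12 in the mast/basophil-like, 0 to 2 in the T cell-like, 0 to 18 in the progenitor-like and 0 to 12 in the macrophage-like class. Without the low-UMI cluster the macrophage-like count was 0. The causes were not tested. In the mast/basophil-like class the count was 5 to 8 under other scalings, without mitochondrial transcripts, at a mitochondrial share of up to 20%, with doublets removed at the expected rate and at resolutions 0.3 and 1.0. Cox7a1, Pet100, Ndufb1-ps, Ndufa1 and Atp5mpl kept their call in all 12 alternatives there, whereas Atp5md lost it in 4 and Ndufa3 in 1, and no named gene that was called changed its direction. Shares of UMIs and the nuclear to mitochondrial ratio moved by less than the spread of the Decoy libraries. The calls of the progenitor-like and macrophage-like classes rest on 120 and 108 PBS cells. No paired analysis was possible because the PBS library shares no replicate number with a Decoy library.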

Other observations

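Ribosomal protein genes above 20 CPM were a further set of short, abundant transcripts, looked at after the members' values had been seen. Their values were close to those of the members in the mast/basophil-like class and apart from them in macrophage-like cells. In the mast/basophil-like class edgeR called 10 of 77 higher and 0 lower, with a median log2 fold change of 0.08. Of the members, edgeR called 7 of 86 higher there (median 0.09), and of all genes tested 0.637%. In macrophage-like cells it called 0 higher and 39 lower (median -0.44), where the 87 members had a median of 0.12. Both classes were compared with the same PBS library, and the difference between the sets was not tested.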
